A study of Morus alba with 35 samples.

Results

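Divergent gene pairs are neighbouring genes on opposite strands whose annotated starts face each other across a short stretch of DNA. In the mulberry (Morus alba) gene table, 122 such pairs (244 genes) were found among 31268 pairs of neighbouring genes in a table of 31401 genes. Genes were ordered by their lowest start on each chromosome or scaffold. A pair was taken when the left gene lay on the minus strand, the right gene lay on the plus strand, 1 to 500 bases separated them, and both genes had at least 10 counts in at least 5 of the 34 libraries. The choice used levels of counts and positions, not the effect of elicitation. Of 249 divergent pairs with a gap of this length, the count rule left out 127, in 70 of which 1 partner met it and in 57 neither did.

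The libraries came from cell suspensions grown from stem-derived callus of one mulberry culture. Elicited flasks received 50 mM methylated cyclodextrin (MBCD) together with 100 µM methyl jasmonate (MeJA), a plant defence hormone, and control flasks received neither. Both arms held ethanol, the solvent of methyl jasmonate, at 2.1 µL per mL. Cells were taken at 0.5, 6, 12, 24, 48 and 72 h. There were 22 elicited libraries, 3 each at 0.5 and 6 h and 4 at every later time, and 12 control libraries, 2 at each time. Each replicate was 1 flask. No label tells whether the flasks were filled from 1 parent suspension or several, and the tests therefore measure flask-to-flask spread.

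A stretch between divergent starts can serve as a promoter for both genes, and such bidirectional promoters are known from plants, animals and yeast. Partners may then share regulatory elements and open chromatin, although each gene has its own core promoter and the partners need not be expressed alike. Jasmonate and cyclodextrin together are used on cultured plant cells to switch on defence metabolism, in mulberry and grapevine above all the making of stilbenes. The deposited table gives identifiers with no gene names, so pairs are given here by chromosome and by the coordinates of the gap between the partners, as the deposited table counts bases. The left gene of a pair is the one on the minus strand.

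Library totals lay between 17191217 and 18897243 counts, so that 3 counts in a library were worth between 0.159 and 0.175 CPM (counts scaled to a common library total). Annotated starts need not be transcription starts. The summed exon length was a multiple of 3 in 48.8% of the member genes and in 31 pairs for both partners, against 49.1% of the 19414 genes that met the count rule, and gene models of this kind may lack untranslated regions. In 23 pairs of genes nested on opposite strands the counts of both partners were nearly equal, with a median ratio of 0.963, and followed each other over libraries with a median correlation of 0.998. Reads were thus counted whatever their strand. Whether reads of 1 member reached into the exons of its partner was not tested. In 16 pairs a partner shared exon bases with some other gene, which is stated where such a pair is named.

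Gaps ran from 16 to 496 bases with a median of 254.5. There were 18 pairs with gaps of 1 to 100 bases, 42 with 101 to 250 and 62 with 251 to 500. The pairs lay on 14 chromosomes, most on chromosomes 7 (18 pairs), 5 (13 pairs) and 4 (12 pairs), and 2 pairs lay on unplaced scaffolds. Member genes had a median exon length of 1280.5 bases, against 1601 bases for all genes that met the count rule, and 10.2% of them had a single exon, against 15.5%. Just inside the limit on the gap stood a pair on chromosome 8 with 495 bases and one on chromosome 13 with 496 bases, and just outside it pairs on chromosomes 6 and 10 with 505 and 509 bases. Their courses correlated at 0.72 and -0.56 inside the limit and at 0.09 and 0.94 outside it. The count rule cut more sharply, since the lower partner reached 10 counts in no library in 116 of the 127 pairs left out and in at most 2 libraries in the others, while 2 member pairs had exactly 5 such libraries and 2 had 6.

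Partners of a pair were seldom expressed at the same level. On the scale of log2 CPM per kilobase of exon, the median level of member genes was 3.25, against 3.34 over all genes that met the count rule. Within pairs the levels of the partners differed by a median of 1.90 log2 units, by at least 1 unit in 89 pairs and by at least 3 units in 31 pairs, and in the most unequal pair by 7.32 units. The median difference was 2.03 in divergent pairs with gaps of 501 to 2000 bases, 2.08 in convergent pairs (facing ends) and 1.28 in same-strand pairs with gaps of 1 to 500 bases, and 2.38 over all possible pairs of genes that met the rule. Across the member pairs the per-kilobase levels of the partners correlated at 0.39, each pair being entered in both orders. The pair with the most abundant lower partner lay on chromosome 10 (gap 4602907 to 4603164) and its genes had per-kilobase levels of 9.66 and 6.72 log2 units. The next, on chromosome 8 (gap 13876740 to 13876963, with a partner that shares exon bases with another gene), had 6.33 and 7.62.

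In the pair with a gap of 16 bases on chromosome 9 (14190538 to 14190553), the left gene averaged 114 ± 7.81 CPM in elicited and 128 ± 13.8 CPM in control cells at 48 h, and the right gene 17.6 ± 1.21 and 19.5 ± 0.473 CPM (SD, n = 4 elicited and 2 control, as for all values at 48 h). The correlation of its courses was -0.18. Averaged over the times it was called in opposite directions, with log2 fold changes of 0.17 ± 0.05 for the left and -0.20 ± 0.05 for the right gene (edgeR adjusted p = 0.00606 and 0.00121), and the left gene was not called with scaling by library totals (edgeR adjusted p = 0.945). At 48 h the means of both genes were lower in elicited cells. At 0.5 h the left gene was called higher, by 0.55 ± 0.14 (edgeR adjusted p = 0.0228). It had 93.0, 127 and 149 CPM in elicited and 78.1 and 89.3 CPM in control libraries then. In the pair with a gap of 20 bases, also on chromosome 9 (3725077 to 3725096), both genes were near the limit of detection. The left gene had 0.056, 0.116, 0 and 0 CPM in the 4 elicited libraries at 48 h, against 1.92 and 0.633 CPM in the 2 control libraries. The right gene had 0.168, 0.233, 0 and 0 CPM in the elicited and 1.83 and 0.243 CPM in the control libraries. All control values were above all elicited ones for both genes, several elicited libraries held no read, and no fold change is given.

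How alike the partners were over time and treatment was measured as the Pearson correlation of their mean log2 CPM over the 12 groups, called the course here. Points share libraries, neighbouring times and depth, so correlations are descriptions and carry no p-value. The member pairs had a median correlation of 0.24, with quartiles of -0.19 and 0.72. The median was 0.18 in 413 divergent pairs with gaps of 501 to 2000 bases, 0.14 in 2515 divergent pairs with longer gaps, 0.03 in 594 convergent pairs and 0.61 in 267 same-strand pairs with gaps of 1 to 500 bases. Over all 188441991 possible pairs of the 19414 genes the median was 0.00. The pairs with short divergent gaps thus stood a little above other divergent and convergent neighbours and well below same-strand neighbours, with quartiles that overlapped between all classes. All these values rest on TMM scaling, which assumes that most genes do not differ between libraries. With scaling by library totals alone the member median was 0.46, against 0.37 and 0.20 in divergent pairs with medium and long gaps, 0.13 in convergent, 0.65 in same-strand and 0.07 in all possible pairs.

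Many member pairs nevertheless followed each other closely. A correlation of at least 0.7 was reached by 33 of the 122 pairs (27.0%), against 17.7% and 14.6% of divergent pairs with medium and long gaps, 12.3% of convergent pairs, 40.8% of same-strand pairs, 17.3% of all neighbouring pairs and 9.98% of all possible pairs. At the lower end, 19 member pairs (15.6%) had a correlation of -0.5 or less, close to the 14.8%, 17.3% and 19.5% of the divergent pairs with medium and long gaps and of the convergent pairs, and to 20.9% of all possible pairs. Leaving out the 16 pairs that share exon bases gave a median of 0.36 in the other 106 pairs. In the 72 pairs whose partners both averaged 2 or more on the log2 CPM scale, it was 0.23.

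**Figure D1:**
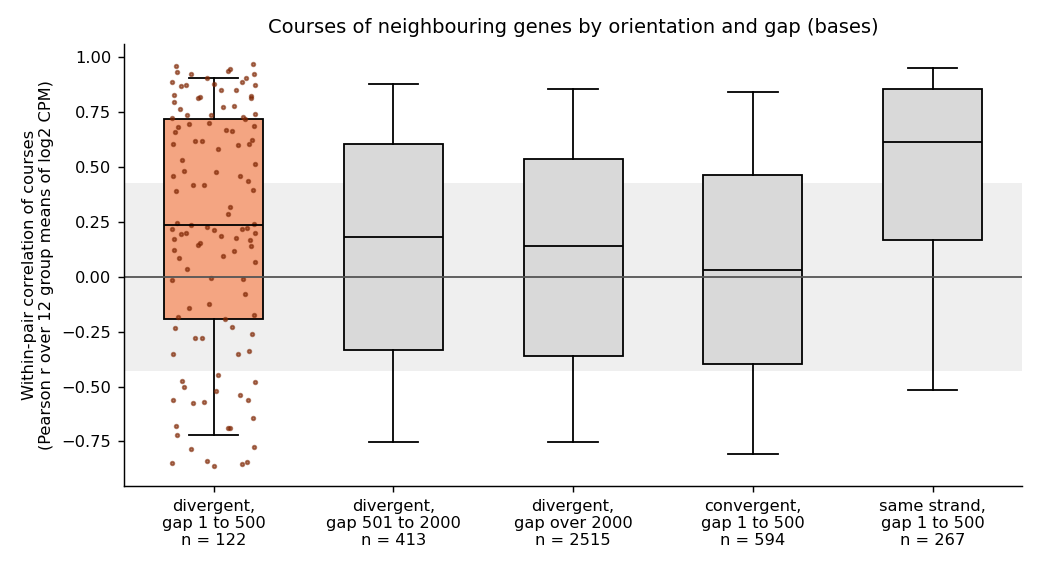
Correlation of the courses of neighbouring genes (Pearson r over the 12 group means of log2 CPM, vertical axis) in 5 classes of neighbours given by orientation and gap in bases. Boxes show median and quartiles, whiskers the 5th and 95th percentiles, points the 122 member pairs, and the grey band the quartiles of all possible pairs of genes (-0.43 to 0.43); the member pairs have a median of 0.24 and spread from -0.86 to 0.97.

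Within the members, pairs with shorter gaps had higher correlations of courses. The sizes of the responses to elicitation, given below, did not follow this order. The median correlation of courses was 0.66 in the 18 pairs with gaps of 1 to 100 bases, 0.43 in the 42 pairs with 101 to 250 and 0.21 in the 62 pairs with 251 to 500. A correlation of at least 0.7 was found in 8 of 18 (44.4%), 14 of 42 (33.3%) and 11 of 62 pairs (17.7%). The median gap was 188 bases in pairs at or above 0.7 and 298 bases in the others. The pairs with the shortest gaps were also the least expressed, with a median log2 CPM of 2.77, against 4.27 and 3.81 in the classes with longer gaps, and the part of this difference in the correlations was not tested.

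Elicited and control libraries are separate flasks, so the courses within each treatment give separate readings of the same pair. Over the 6 times the median correlation was 0.38 in elicited cells and 0.44 in control cells, against 0.14 and 0.08 in convergent pairs and 0.63 and 0.65 in same-strand pairs. A correlation above 0.7 was seen in 31 of the 122 pairs in elicited cells and in 44 pairs in control cells, and in 22 pairs in both. Of all possible pairs, 16.8% reached 0.7 or more in either treatment. A correlation below -0.5 was seen in 25 and 26 pairs, and in 13 pairs in both. Of all possible pairs, 27.3% in elicited and 27.2% in control cells were at -0.5 or less. No such share was at hand for both treatments together. Across the 122 pairs the values in elicited and in control cells correlated at 0.66 (Pearson) and 0.68 (Spearman), with the time points in common.

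Flasks of one group also differ among themselves, and partners can share these deviations. Over the 34 deviations from the group means, the median within-pair correlation was 0.06, against 0.19 in same-strand pairs and 0.00 over all possible pairs. It was 0.42 in the 33 pairs whose courses correlated at 0.7 or above, and 0.00 in the other 89 pairs. No such value was at hand for other neighbours or all possible pairs, so 0.42 is not read as a trait of divergent pairs. The course was not computed from these deviations, although both draw on the same libraries.

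Most member genes changed with time in culture. In edgeR's quasi-likelihood F test with Benjamini-Hochberg adjustment below 0.05, which is the rule for a call here, 202 of the 244 member genes changed over time in elicited cells (84.9% of all 20107 genes tested) and 202 in control cells (82.4% of all genes tested). Both partners did so in 84 pairs in either treatment. No share of neighbouring pairs was at hand for this count, so it is not read as a result about pairs. These are bulk cultures, in which fewer cells of a kind and less RNA per cell cannot be told apart. Between 0.5 and 72 h, 98 member genes rose and 66 fell in elicited cells, 67.2% in all against 68.8% of all genes tested (34.6% rose and 34.2% fell). In control cells 97 rose and 63 fell, 65.6% against 64.8% (31.5% rose and 33.3% fell). With scaling by library totals 133 rose and 41 fell in elicited cells, against 9283 and 5204 of all genes tested, and 120 rose and 41 fell in control cells, against 8256 and 5109 of all genes. Both partners rose in 23 pairs, both fell in 13 and they went opposite ways in 20 in elicited cells, where pairs called in the same direction made up 29.5% of the members and 29.3% of 13135 neighbouring pairs (14.6% both rising, 14.7% both falling), and opposite pairs 21.4% of the neighbouring pairs. In control cells the numbers were 24, 15 and 19, and same-direction pairs made up 32.0% of the members and 26.6% of the neighbouring pairs (12.4% both rising, 14.2% both falling), with 19.1% of these opposite. Of all possible pairs, 24.1% were same-direction and 24.1% opposite in elicited cells, and 21.7% and 21.6% in control cells.

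The pair on chromosome 7 with a gap of 485 bases (3033494 to 3033978) had the highest correlation among well-expressed pairs, 0.97 over all groups and 0.97 in either treatment alone. Its left gene had 117 ± 7.06 CPM in elicited and 106 ± 4.87 CPM in control cells at 0.5 h, and 50.3 ± 2.81 and 37.5 ± 0.616 CPM at 72 h. Its right gene had 68.8 ± 16.1 and 50.9 ± 8.00 CPM at 0.5 h, and 17.3 ± 1.79 and 11.6 ± 3.25 CPM at 72 h (SD, n = 3 elicited and 2 control at 0.5 h, 4 and 2 at 72 h). Both genes thus fell over the 3 days in elicited cells, by 1.22 ± 0.08 and 1.99 ± 0.19 on the log2 scale (SE), and in control cells by 1.51 ± 0.11 and 2.14 ± 0.26, with edgeR adjusted p of 3.73e-12 and 5.37e-08 in controls. Another pair on chromosome 7 (gap 12004221 to 12004348) fell by 1.54 ± 0.27 and 1.91 ± 0.17 in controls, with a correlation of 0.98 over the control times and 0.34 over the elicited times.

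Other pairs rose together with time. In the chromosome 10 pair with a gap of 211 bases (4532381 to 4532591), the left gene rose by 1.03 ± 0.11 log2 units in elicited and 1.27 ± 0.14 in control cells between 0.5 and 72 h, and the right gene by 1.82 ± 0.17 and 2.01 ± 0.22 (edgeR adjusted p at most 9.39e-09 in each). Neither gene was called for elicitation on average. In the chromosome 5 pair with a gap of 367 bases (15628619 to 15628985), both genes rose in both treatments, by 1.19 ± 0.22 and 0.81 ± 0.11 in elicited and by 1.23 ± 0.28 and 1.13 ± 0.14 in control cells. The lowest correlation, -0.86, belonged to the chromosome 3 pair at 14173581 to 14173788, whose left gene fell while its right gene rose.

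From 6 to 48 h, elicitation changed a growing number of member genes. The elicited minus control difference was tested with edgeR at each time over all 20107 genes. It was called for 16 of the 244 member genes at 0.5 h (6.56%, against 3.97% of all genes tested), 10 at 6 h (4.10% against 6.24%), 28 at 12 h (11.5% against 23.0%), 73 at 24 h (29.9% against 39.6%), 99 at 48 h (40.6% against 51.5%) and 81 at 72 h (33.2% against 44.1%). At 0.5 h 14 of the 16 were higher and 2 lower in elicited cells, against 2.34% higher and 1.64% lower of all genes tested. In some named genes elicited replicate 3 at 0.5 h stood apart, as in the left gene of the chromosome 2 pair (761 against 510 and 528 CPM). In others it did not, as in the left gene of the chromosome 8 pair at 13876740 (141 against 144 and 131 CPM). The right gene of that pair was called higher at 0.5 h, by 0.49 ± 0.12 (edgeR adjusted p = 0.0248). It had 140 CPM in replicate 3, against 96.9 and 112 CPM. Replicate 3 also stood apart on the low side, as in the right gene of the chromosome 10 pair at 4602907 (68.3 against 127 and 119 CPM). Libraries at 0.5 h were not screened for this, and its part in the split was not tested. At 48 h 46 were higher and 53 lower, against 26.5% and 25.1%. For the mean of the 6 differences, 120 member genes were called, 59 higher and 61 lower, which is 49.2% against 61.0% of all genes tested (30.9% higher and 30.0% lower). The split by direction holds for TMM scaling: scaling by library totals shifted the median change of all genes by -0.17 log2 units and gave 30 member genes higher and 117 lower, against 4117 and 9512 of all genes tested. At 48 h it gave 29 higher and 90 lower, against 3827 and 7291 of all genes, and at 0.5 h 2 higher and 4 lower, against 253 and 897. The median size of this mean difference was 0.18 log2 units in member genes and 0.28 in all genes tested, and at 48 h it was 0.35 and 0.53. At 1 time or more 141 member genes were called, where 69.6% of all genes tested were. Each partner was called in 45 pairs, 1 partner in 51 pairs and neither in 26 pairs, where the shares of neighbouring pairs were 53.9%, 37.3% and 8.83%.

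Both partners were called in the same direction in no pair at 0.5, 6 or 12 h, where 0.206%, 0.579% and 4.57% of the neighbouring pairs were. The zero at 12 h depended on the scaling, since library totals gave 10 such pairs at 12 h. DESeq2 called 1, 2 and 1 such pairs at 0.5, 6 and 12 h, and 6, 4 and 6 pairs had both partners on the same side at an unadjusted edgeR p below 0.05. There were 9 such pairs at 24 h (7.38%, against 11.7% of neighbouring pairs), 14 at 48 h (11.5% against 18.3%) and 15 at 72 h (12.3% against 14.4%), and with scaling by library totals 16 at 24 h and 23 at 48 h. Fitted without the other times, 48 h gave 7. Of the pairs called with TMM scaling, 6, 8 and 10 pairs were higher and 3, 6 and 5 pairs lower in elicited cells, where 7.3%, 10.2% and 7.67% of neighbouring pairs were higher and 4.36%, 8.07% and 6.68% lower in both partners. With only 2 control libraries at each time, these counts depended on single controls: 4 pairs were left at 24 h without control replicate 1, 8 at 48 h without control replicate 1, and 9 or 8 at 72 h without control replicate 1 or 2. Partners were called in opposite directions in no pair at 0.5, 6 or 12 h, where 0.0533%, 0.16% and 2.17% of neighbouring pairs were, and 3, 1 and 1 pairs were opposite at an unadjusted edgeR p below 0.05. They were in 7, 10 and 4 pairs at 24, 48 and 72 h (5.74%, 8.20% and 3.28%, against 7.85%, 12.6% and 8.82% of neighbouring pairs). On average over the times, 10 pairs were higher in both partners, 10 were lower in both, 14 were opposite, 52 had 1 partner called and 36 had neither, where 13.5% of neighbouring pairs were higher in both, 11.1% lower in both and 44.1% had 1 partner called. Same-direction pairs were thus 16.4% of the members and 24.7% of neighbouring pairs, opposite pairs 11.5% and 16.9%, and pairs without a call 29.5% and 14.3%. Of all possible pairs of the 19414 genes, 19.4% were same-direction and 19.4% opposite on average. At 24, 48 and 72 h, 8.36%, 13.9% and 10.1% of these were same-direction and 8.2%, 13.8% and 10.1% opposite. With all libraries in, the members at 72 h were above the share of all possible pairs for the same direction and below it for opposite directions. Among pairs with both partners called on average, 58.8% of the members and 59.3% of all neighbouring pairs went the same way, against 49.1% of convergent and 85.0% of same-strand pairs. Scaling by library totals gave 39 same-direction and 8 opposite pairs on average, 32.0% and 6.56% of the members, against 33.1% and 17.4% of neighbouring pairs, and without control 0.5 h replicate 2 there were 9 opposite pairs.

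**Figure D2:**
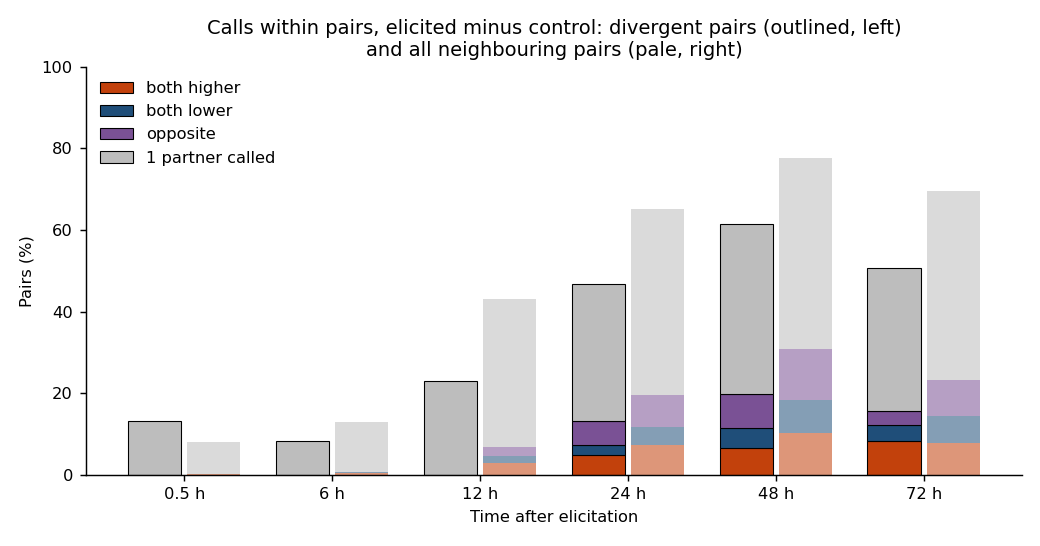
Share of pairs (%, vertical axis) by what was called for elicited minus control cells at each time (horizontal axis): both partners higher, both lower, opposite directions, or 1 partner only. The outlined left bar of each time shows the 122 divergent pairs and the pale right bar the 13135 neighbouring pairs; no divergent pair had both partners called before 24 h in this edgeR fit with TMM scaling, while library totals gave 10 same-direction pairs at 12 h and DESeq2 gave 1, 2 and 1 at 0.5, 6 and 12 h.

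The sizes of the responses were compared as well. Over the members, with each pair entered in both orders, the average log2 fold changes of the partners correlated at 0.42, against 0.37 in divergent pairs with gaps of 501 to 2000 bases, 0.10 in those with longer gaps, 0.05 in convergent pairs and 0.59 in same-strand pairs. This order depended on the level of the genes. With both partners averaging 2 or more in log2 CPM, members had 0.30 and divergent pairs with medium gaps 0.42. Convergent pairs then had -0.02 and same-strand pairs 0.25, so that members stood below medium gaps and same-strand pairs no longer led. Without this limit, in order of time at 0.5 to 72 h, the member value was 0.21, 0.21, 0.16, 0.48, 0.42 and 0.47. The 6 fold changes of a pair, compared over the times within the pair, had a median correlation of 0.27 in the members, 0.22 in divergent pairs with medium gaps, -0.06 in convergent pairs and 0.39 in same-strand pairs. The member median was 0.15 without elicited 0.5 h replicate 3 and 0.14 as a Spearman correlation. At gaps of 1 to 100, 101 to 250 and 251 to 500 bases, the average fold changes of the partners correlated at 0.18, 0.40 and 0.44. The median correlation over the times was 0.40, 0.27 and 0.19 in these classes. The sizes thus did not follow the order by gap seen in the courses, while the correlation over the times did. Without a limit on level, divergent pairs with gaps up to 500 bases and those with gaps of 501 to 2000 bases were close in both measures. With the limit, the median correlation over the times was 0.31 in members and 0.18 at medium gaps. Members were then the higher class in this measure and the lower one in the sizes.

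**Figure D3:**
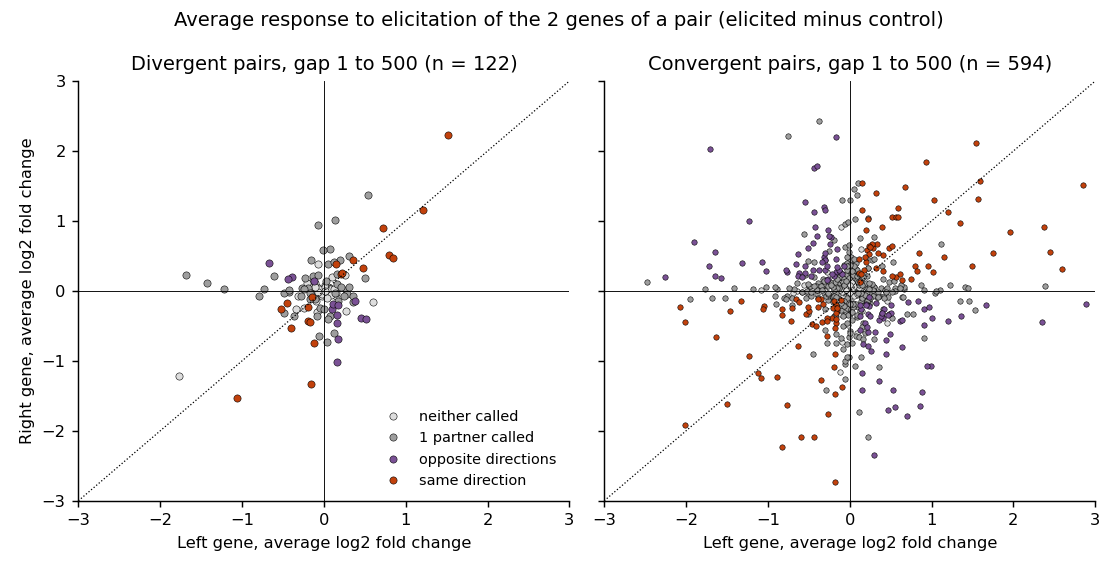
Average elicited minus control log2 fold change of the left gene (horizontal axis) and the right gene (vertical axis), 1 point per pair, for the 122 divergent pairs (left panel) and 594 convergent pairs (right panel) with gaps of 1 to 500 bases. Colours give the calls on the average over the times and the dotted line marks equal change; 5 convergent pairs lie beyond the axes and no divergent pair does.

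The difference between the partners was also tested itself, as the elicited minus control change of the log2 ratio of left to right gene, with limma over 13972 neighbouring pairs. Partners responded differently in 4 pairs at 0.5 h (3.28%, against 3.55% of all neighbouring pairs tested), 5 at 6 h (4.10% against 4.79%), 16 at 12 h (13.1% against 21.2%), 35 at 24 h (28.7% against 40.1%), 51 at 48 h (41.8% against 52.4%) and 34 at 72 h (27.9% against 47.4%). On average over the times they did so in 70 pairs (57.4% against 62.5%). The average share was 57.4% in divergent pairs with gaps of 501 to 2000 bases, 66.8% in convergent and 31.8% in same-strand pairs with gaps of 1 to 500 bases. At the single times and on average, the share of unequal pairs among the members was close to or below that of all neighbouring pairs.

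The effect of elicitation differed between times in 88 member genes by edgeR's F test with adjusted p below 0.05, against 46.9% of all genes tested, and in 18 pairs this held for both partners, where it did in 27.0% of neighbouring pairs. At 1 or more of the single times, 22 pairs were called in the same direction in both partners and 13 in opposite directions, where 26.8% and 18.9% of neighbouring pairs were.

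Among pairs called higher in both partners, those described here lay on chromosomes 4, 14 and 8. In the chromosome 4 pair with a gap of 168 bases (14966599 to 14966766), the left gene (Mal_HE_154X_1_chr004g014540) had 18.2, 19.2, 12.9 and 19.2 CPM in elicited libraries at 48 h, against 2.23 and 2.87 CPM in control libraries. The right gene (Mal_HE_154X_1_chr004g014550) had 7.28, 7.16, 11 and 5.85 CPM in elicited and 2.23 and 1.85 CPM in control libraries. The groups did not overlap for either gene. At 48 h the log2 fold changes were 2.77 ± 0.28 and 1.93 ± 0.25 (SE; edgeR adjusted p = 2.80e-09 and 1.85e-07). On average over the times they were 1.22 ± 0.11 and 1.16 ± 0.10, and an average difference between the partners of 0.07 ± 0.16 was not detected (limma adjusted p = 0.719). At single times the partners differed with opposite signs, by -1.35 ± 0.38 left minus right at 12 h and 0.98 ± 0.38 at 72 h (limma adjusted p = 0.0118 and 0.0355), with 0.86 ± 0.38 at 48 h (adjusted p = 0.0598). The right gene was ahead in time, with 16.5 ± 1.37 CPM in elicited and 6.30 ± 1.02 CPM in control cells at 12 h, when the left gene had 10.2 ± 3.17 and 9.65 ± 0.325 CPM.

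In the chromosome 14 pair with a gap of 265 bases (2393506 to 2393770), the left gene was lower at 48 h than at 0.5 h in both treatments. The right gene was lower at 48 h than at 0.5 h in control cells only, after 52.8 and 58.4 CPM in control libraries at 6 h. At 48 h the left gene had 32.5, 30.0, 32.8 and 27.9 CPM in elicited libraries, against 8.11 and 12.3 CPM in control libraries, and the right gene 41.9, 37.7, 38.1 and 32.2 CPM against 15.5 and 15.6 CPM. Every elicited value was above every control value. At 0.5 h the left gene had 67.1 ± 9.52 CPM in elicited and 60.8 ± 3.64 CPM in control cells, and the right gene 33.3 ± 1.95 and 35.4 ± 4.26 CPM, so the treatments parted later. The average log2 fold changes were 0.79 ± 0.07 and 0.51 ± 0.05 (edgeR adjusted p = 1.40e-10 and 3.06e-10), and the left gene gained 0.27 ± 0.07 more than the right (limma adjusted p = 0.00196). The responses of the partners over the times correlated at 0.97.

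The chromosome 8 pair with a gap of 495 bases (17926236 to 17926730) joined a strongly responding gene to one near the limit of detection. Its right gene had 50.0, 61.7, 38.2 and 39.1 CPM in elicited libraries at 48 h, against 2.23 and 1.46 CPM in control libraries, a log2 fold change of 4.67 ± 0.39 (edgeR adjusted p = 7.07e-11). Its left gene had 0.560, 0.349, 0.223 and 0.450 CPM in elicited and 0.0445 and 0 CPM in control libraries. Both control values of the left gene lay below the worth of 3 counts, so its fold change is not given, and the place of this pair in an order by size rests on that gene. At 6 h the right gene had 51.2 ± 14.8 CPM in elicited and 58.0 ± 35.3 CPM in control cells, and at 72 h it had 30.6 ± 6.21 and 1.42 ± 0.132 CPM.

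A further chromosome 4 pair with a gap of 251 bases (22286860 to 22287110) was the only one in which both partners were called higher on average, both had the same sign at all 6 times and both reached a mean log2 CPM of 2. At 48 h its left gene had 4.48, 2.33, 4.01 and 4.44 CPM in elicited and 2.36 and 2.09 CPM in control libraries, which overlap. Its right gene had 9.46, 10.4, 12.2 and 10.2 CPM in elicited and 1.43 and 5.26 CPM in control libraries, which do not. The average log2 fold changes were 0.73 ± 0.09 and 0.89 ± 0.13 (edgeR adjusted p = 1.12e-07 and 5.59e-07). The courses of the partners correlated at 0.66 over all groups, at -0.58 in elicited and at 0.72 in control cells.

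**Figure D4:**
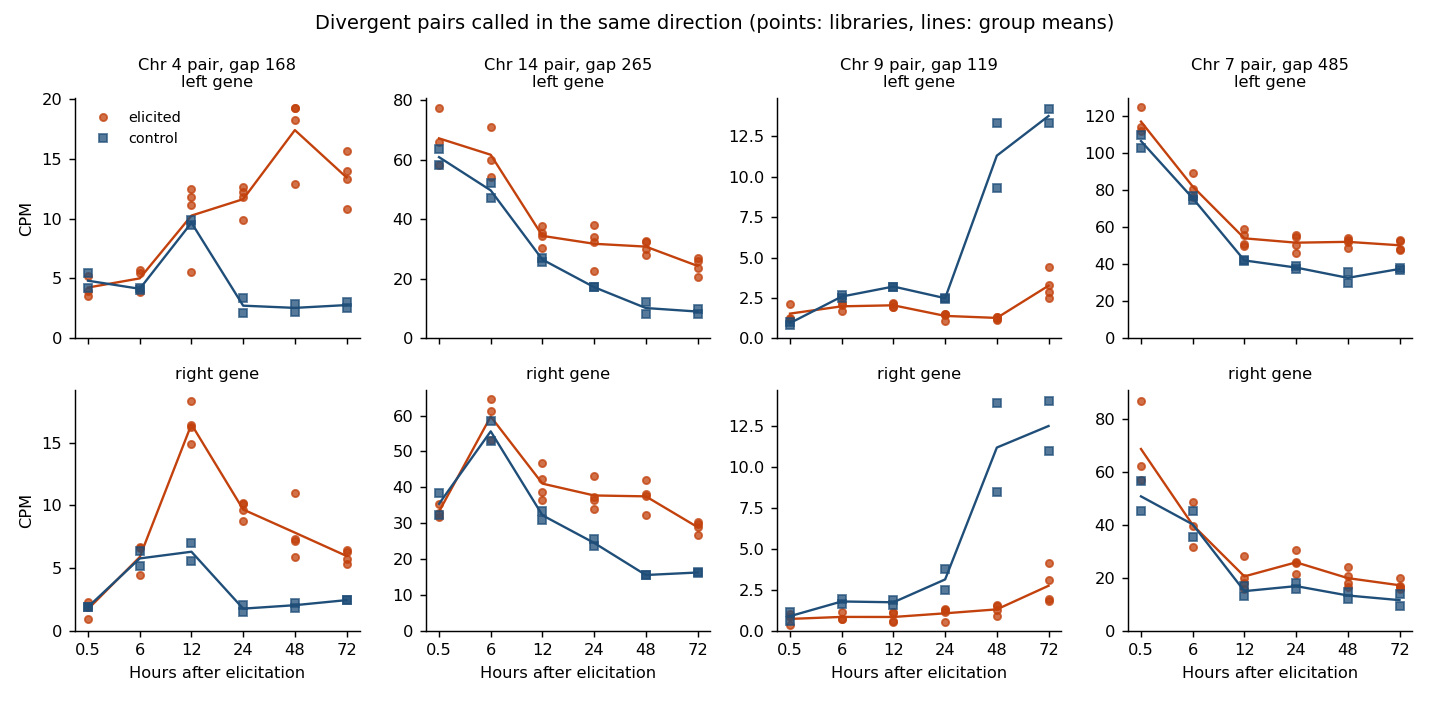
CPM of the left gene (upper row) and right gene (lower row) in every library over time after elicitation, for 4 pairs called in the same direction on average; circles are elicited and squares control libraries, and lines join group means. In the chromosome 4 and 14 pairs elicited libraries lie above control libraries from 24 h, in the chromosome 9 pair control libraries rise at 48 h, and in the chromosome 7 pair both genes decline together.

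Among pairs lower in both partners, the chromosome 9 pair with a gap of 119 bases (11138901 to 11139019) moved furthest. The left gene (Mal_HE_154X_1_chr009g009860) had 1.34, 1.22, 1.17 and 1.35 CPM in elicited libraries at 48 h, against 13.3 and 9.30 CPM in control libraries. The right gene (Mal_HE_154X_1_chr009g009870) had 1.51, 0.873, 1.56 and 1.29 CPM in elicited and 13.9 and 8.47 CPM in control libraries. The groups stood apart for both genes. In control cells both genes rose between 0.5 and 72 h, by 3.85 ± 0.27 and 3.80 ± 0.45 log2 units, and in elicited cells by 1.09 ± 0.21 and 1.91 ± 0.38. The 48 h log2 fold changes were -3.15 ± 0.20 and -3.08 ± 0.33 (edgeR adjusted p = 6.35e-13 and 7.15e-09), and a difference between the partners at 48 h of -0.05 ± 0.48 was not detected (limma adjusted p = 0.941). Averaged over the times the partners did differ, by 0.45 ± 0.20 left minus right (limma adjusted p = 0.0483). The responses correlated at 0.99 over the times. A partner of this pair shares exon bases with another gene, so some of its reads may belong there.

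The other pairs lower in both partners changed less. The chromosome 7 pair with a gap of 438 bases (5916021 to 5916458), made of single-exon genes, had 24.2, 25.3, 16.0 and 29.0 CPM for the left gene in elicited libraries at 48 h, against 44.2 and 50.0 CPM in control libraries, and average log2 fold changes of -0.52 ± 0.09 and -0.25 ± 0.09 (edgeR adjusted p = 1.15e-05 and 0.0182). The right gene lost its call without control 0.5 h replicate 1 or control 48 h replicate 1 (edgeR adjusted p = 0.0576 and 0.0575). The chromosome 14 pair with a gap of 173 bases (10721334 to 10721506) had average changes of -0.40 ± 0.12 and -0.53 ± 0.09, and its courses correlated at 0.94. The chromosome 12 pair with a gap of 416 bases (16635779 to 16636194) had -0.20 ± 0.06 and -0.43 ± 0.07. In the most abundant pair, on chromosome 10 (4602907 to 4603164), both partners were also lower on average, with log2 fold changes of -0.19 ± 0.05 and -0.24 ± 0.07 (edgeR adjusted p = 0.000924 and 0.00272). Its left gene had 673, 686, 747 and 789 CPM in elicited libraries at 48 h, against 1090 and 1190 CPM in control libraries. With the title's replicate number as a block in the fit, its right gene was not called (edgeR adjusted p = 0.0575).

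Opposite responses were led by a chromosome 1 pair with a gap of 473 bases (3222291 to 3222763). Its left gene had 15, 12.7, 10.5 and 11.6 CPM in elicited libraries at 48 h, against 49.9 and 45.8 CPM in control libraries. Its right gene had 7.95, 7.57, 7.51 and 9.23 CPM in elicited and 7.04 and 4.33 CPM in control libraries. Elicited libraries were the lower ones for the left gene and the higher ones for the right gene, without overlap in either. The average log2 fold changes were -0.68 ± 0.07 and 0.40 ± 0.07 (edgeR adjusted p = 2.15e-09 and 3.35e-05), with a difference between the partners of -1.08 ± 0.11 (limma adjusted p = 2.33e-09). Between 0.5 and 72 h the left gene rose in both treatments, by 1.94 ± 0.16 log2 units in elicited and 2.80 ± 0.20 in control cells.

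The chromosome 3 pair with a gap of 208 bases (14173581 to 14173788) was opposite both in its courses and in its response. Its left gene had 232 ± 41.6 CPM in elicited and 180 ± 8.16 CPM in control cells at 0.5 h (n = 3 and 2), and 39.1 ± 3.52 and 25.9 ± 3.67 CPM at 48 h. Its right gene had 159 ± 24.6 and 190 ± 3.67 CPM at 0.5 h, and 253 ± 17.8 and 344 ± 12.9 CPM at 48 h. The left gene thus declined while the right gene rose in both treatments, and elicited cells held more of the left and less of the right transcript. The average log2 fold changes were 0.45 ± 0.09 and -0.39 ± 0.05 (edgeR adjusted p = 0.000187 and 2.04e-08). The courses correlated at -0.84 in elicited and -0.91 in control cells.

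Smaller opposite responses were seen in the chromosome 5 pair with a gap of 236 bases (18499914 to 18500149), with average changes of -0.39 ± 0.06 and 0.20 ± 0.05, and in the chromosome 7 pair with a gap of 68 bases (12732411 to 12732478), with -0.44 ± 0.14 and 0.18 ± 0.06. The chromosome 7 pair includes a gene that shares exon bases with another. The right genes of both pairs were no longer called with scaling by library totals (edgeR adjusted p = 0.635 and 0.914), nor was that of the chromosome 7 pair without control 24 h replicate 1 (edgeR adjusted p = 0.0537). In both pairs, limma found the partners to differ, by -0.59 ± 0.10 (adjusted p = 7.52e-06) and by -0.65 ± 0.18 (adjusted p = 0.00208). With the title's replicate number as a block in the fit, neither gene of the chromosome 7 pair was called (edgeR adjusted p = 0.151 and 0.173).

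On average over the times 1 partner only was called in 42.6% of the members and 44.1% of neighbouring pairs. In 26 such pairs, with both partners averaging 2 or more in log2 CPM, the difference between the partners was itself called. No share of neighbouring pairs was at hand for this count, which only gives the set from which examples were drawn. In the chromosome 2 pair with a gap of 407 bases (2820524 to 2820930), the right gene had 13.0, 15.7, 18.1 and 12.8 CPM in elicited libraries at 48 h, against 5.21 and 7.60 CPM in control libraries. The left gene, among the most abundant of all members, had 765, 734, 756 and 889 CPM in elicited and 972 and 1130 CPM in control libraries. On average the right gene was higher by 0.95 ± 0.10 log2 units (edgeR adjusted p = 1.90e-09), while the left gene, at -0.07 ± 0.06, was not called (edgeR adjusted p = 0.295), and the difference between them was -1.01 ± 0.09 (limma adjusted p = 7.46e-11). At 48 h the left gene was called lower and the right gene higher, with log2 fold changes of -0.42 ± 0.13 and 1.22 ± 0.24 (edgeR adjusted p = 0.00971 and 9.27e-05), so that the pair was opposite then. The courses of the partners correlated at -0.78.

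The chromosome 10 pair with a gap of 310 bases (3692233 to 3692542) had its response in the right gene, with 16.8, 14.3, 20 and 19.7 CPM in elicited libraries at 48 h, against 58.5 and 71.2 CPM in control libraries. The left gene had 42.6, 42.8, 40.4 and 46.6 CPM in elicited and 45.9 and 49.6 CPM in control libraries, which overlap. The average changes were -0.73 ± 0.07 for the right gene (edgeR adjusted p = 2.48e-10) and 0.04 ± 0.05 for the left gene (adjusted p = 0.467), and the left minus right difference was 0.78 ± 0.09 (limma adjusted p = 1.69e-08).

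A shared course went with responses of unlike size in the chromosome 7 pair with a gap of 479 bases (8638723 to 8639201), in which a partner shares exon bases with another gene. The courses of its genes correlated at 0.91 in either treatment, since both fell with time. Yet the right gene had 28.8, 28.6, 56.0 and 41.9 CPM in elicited libraries at 48 h, against 9.40 and 15.9 CPM in control libraries, while the left gene had 49.5, 50.3, 55 and 52.8 CPM in elicited and 47.5 and 47.2 CPM in control libraries. Their average changes were 1.01 ± 0.12 and 0.13 ± 0.08 for the right and left gene (edgeR adjusted p = 2.65e-08 and 0.157). At 48 h every elicited value was above both control values in either gene. The responses of the partners over the times correlated at 0.48, against a median of 0.27 in the members. In the chromosome 5 pair with a gap of 258 bases (17255704 to 17255961), the right gene was higher by 0.44 ± 0.11 on average (edgeR adjusted p = 0.000944) and the left gene, at -0.15 ± 0.09, was not called on average. At 0.5 h this left gene was called lower, by -0.89 ± 0.24 (edgeR adjusted p = 0.0354). It had 5.31, 3.94 and 3.22 CPM in elicited and 8.39 and 7.07 CPM in control libraries then. In the abundant chromosome 8 pair (13876740 to 13876963), the right gene had 157, 154, 152 and 192 CPM in elicited libraries at 48 h, against 289 and 291 CPM in control libraries, while the left gene had 177, 172, 192 and 189 CPM in elicited and 183 and 168 CPM in control libraries.

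**Figure D5:**
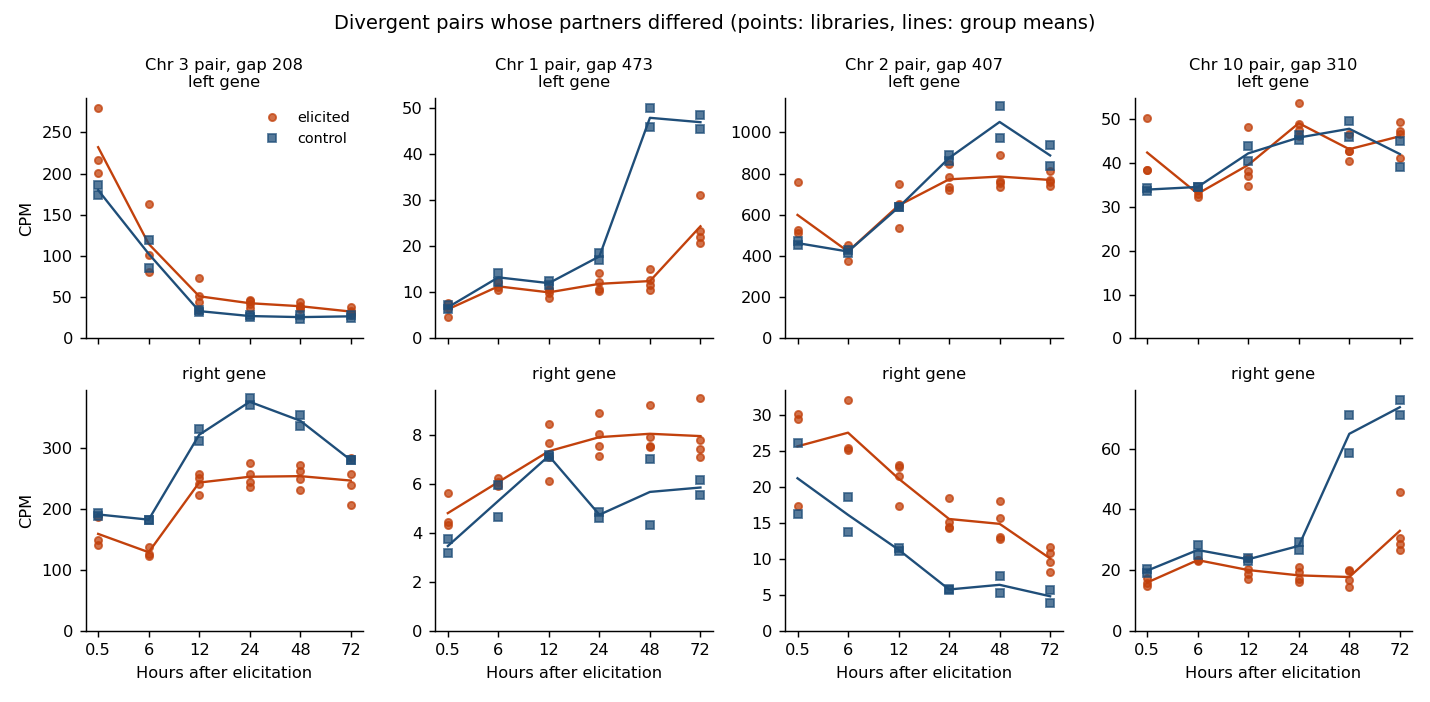
CPM of the left gene (upper row) and right gene (lower row) in every library over time after elicitation, for 4 pairs whose partners responded differently; circles are elicited and squares control libraries, and lines join group means. The chromosome 3 and 1 pairs were called in opposite directions, and in the chromosome 2 and 10 pairs the right gene was called on average and the left gene was not.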

How the data were processed

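The authors deposited 1 table of raw read counts (whole numbers, without normalization) for each gene, with exon coordinates. Per the submitters' processing notes, the authors used fastp, STAR and featureCounts; versions, genome build, strand setting and the handling of reads that map to several genes are not stated in any source at hand. Library totals were 17191217 to 18897243 counts, and counts of replicate libraries (36 comparisons) differed beyond sampling noise, with a chi-square of 2.79 to 94.7 for each degree of freedom, so none were merged.

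Neighbours were read from the table in order of lowest start. Counts were analysed in R 4.3.3 with edgeR 4.0.16: filterByExpr (minimum count 10) kept 20107 genes, TMM gave the scaling factors, and all 34 libraries entered 1 quasi-likelihood fit whose terms were the 12 group means. The elicited minus control difference was tested at every time and as the mean over times, and 72 minus 0.5 h was tested in each treatment. P-values were adjusted by Benjamini-Hochberg over all genes and called below 0.05. Limma 3.58.1 (eBayes with trend) tested the left minus right log2 CPM (prior count 2) over 13972 neighbouring pairs. Shares of calls over neighbours refer to 13135 pairs with both genes meeting the count rule. Per-kilobase levels used log2 of CPM per kilobase plus 0.1. Standard errors of edgeR fold changes were derived from the F statistic, and other errors are SD over libraries.

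In place of random pairs, all possible pairs of the 19414 genes and the other classes of neighbours were used. Pairs are members and not replicates, so no test over pairs was run.

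Pairs were named by rule: the leading 4 called higher in both partners, lower in both, in opposite directions, and in 1 partner only with a called difference, each ranked by the smaller change or the difference; the 2 with the shortest gaps; the 2 with the highest lower partner; the 2 that rose and the 2 that fell most with time in controls; and the highest and lowest correlation. A mean log2 CPM of at least 2 was asked for except for gaps and levels. Since only 1 and 0 pairs met the first 2 parts with the same sign at all 6 times, pairs without the sign and level conditions were added after their values were seen. The members, rules and tests were chosen with earlier results of these data known.

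Alternatives were other scaling, no filter, DESeq2 1.42.0, each time fitted alone, other gap and count limits, a prior count of 0.5, Spearman correlation, a replicate block (by title and, added after the data were seen, by the last digit of the descriptions), and each library left out in turn. The scripts were checked on simulated counts. The labels give no shared batch or day for the replicate numbers.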

Additional observations from a re-analysis of the deposited data

Results flagged for a closer look

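In groups of 4 libraries, a single library was set apart when its distance to the nearest other, divided by the range of the group, passed Dixon's limit. Of 96 such groups among the named genes, elicited cells at 48 and 72 h, 3 were set apart, where chance gives about 1 in 20. All were elicited libraries at 48 h. The left gene of the chromosome 4 pair at 14966599 to 14966766 had 12.9 CPM in replicate 3, against 18.2 to 19.2 CPM in the others, and every value was above both controls. The left gene of the chromosome 10 pair at 4532381 to 4532591 had 26.5 CPM in replicate 3, against 28.4 to 28.6 CPM. The right gene of the chromosome 8 pair at 13876740 to 13876963 had 192.0 CPM in replicate 4, against 152.0 to 157.0 CPM.

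The size of the elicitation effect depended on time, by edgeR's F test of equal differences at the 6 times, in 88.0 of the 244 member genes. Of the first named pair of each kind of outcome, this held for both partners of the chromosome 8 pair at 17926236 to 17926730 (edgeR adjusted p = 0.00929 for the left gene and 3.79e-10 for the right gene) and of the chromosome 9 pair at 11138901 to 11139019 (2.39e-09 for the left gene and 0.00212 for the right gene). It held for the left gene of the chromosome 1 pair at 3222291 to 3222763 (edgeR adjusted p = 1.26e-06) and for the left gene of the chromosome 2 pair at 2820524 to 2820930 (edgeR adjusted p = 0.0261); this gene was not called on average over the times.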

How the results depend on the processing

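Among pair counts and medians recomputed under settings other than leaving out 1 library, 99 stayed close to those reported and 31 moved (close means within 1.5 times for counts, and within the leave-one-out standard error of 0.105 for courses and 0.172 for responses). Scaling by library totals gave 10, 16 and 23 same-direction pairs at 12, 24 and 48 h, 39 on average, 8 opposite pairs and a median course correlation of 0.46; RLE scaling and no filter moved no value past these limits. DESeq2 gave 1, 2 and 1 same-direction pairs at 0.5, 6 and 12 h. Fitting 48 h alone gave 7. Limiting gaps to 250 bases (60 pairs) gave 5, 8 and 7 same-direction pairs at 24, 48 and 72 h, 8 on average, 7 opposite, 33 with unequal partners and a course median of 0.45. Gaps up to 1000 bases (244 pairs) gave 1, 5, 19, 35 and 27 same-direction pairs at 6, 12, 24, 48 and 72 h, 45 on average, 29 opposite and 135 unequal. Leaving out pairs that share exon bases gave a course median of 0.36, and leaving out elicited 12 h library 4 and 48 h library 3 gave 1 same-direction pair at 12 h. The gap limits and the exon rule change the number of pairs; for the other settings the cause was not tested.

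With each library left out in turn, same-direction pairs ranged over 0 to 1 at 0.5 h, 0 to 1 at 6 h, 0 to 2 at 12 h, 4 to 10 at 24 h, 8 to 16 at 48 h and 8 to 16 at 72 h, 15 to 21 on average, opposite pairs over 9 to 16, unequal pairs over 62 to 71, and medians over 0.23 to 0.30 for courses and 0.15 to 0.32 for responses. Among average changes of named genes 260 kept their call under the other settings and 6 lost it; with 1 library left out 1289 kept it and 3 lost it, and no value changed sign. Whether either set of numbers pairs the flasks could not be told, since with 2 controls at a time the control deviations mirror each other. Same-numbered libraries by title had deviations correlated at -0.0884 to 0.141, with 0.11 and 0.141 at 0.5 h. The 10 with the same last digit in the descriptions had -0.124 to 0.0746. This digit can differ from the title's number and is only taken here as a flask number. With a replicate block by title there was 1 same-direction pair at 12 h, there were 9 opposite pairs on average, and 54 pairs had unequal partners. Under it neither gene of the chromosome 7 pair at 12732411 (edgeR adjusted p = 0.151 and 0.173) nor the right gene of the chromosome 10 pair at 4602907 (0.0575) was called. A block by the last digit of the descriptions, added after the data were seen, gave 1 same-direction pair each at 0.5 and 12 h, 16 opposite and 66 unequal pairs, and no named gene lost its call. Control groups of 2 limit every single-time call.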
